A study of Drosophila melanogaster with 3 samples.

Results

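This account follows 49 protein-coding genes of the fly whose symbols begin with MED and a digit, Taf and a digit, or TfII, out of 13945 protein-coding genes on 6 chromosomes. The symbol rule gave 25 MED genes, 15 Taf genes and 9 TfII genes, and no measured value was used to choose them. Binding was read at their transcription starts in peak lists of Hybrid male rescue (Hmr), a DNA-binding chromatin protein known from hybrid incompatibility. ChIP-seq, which sequences the DNA recovered with an immunoprecipitated protein, was made with an anti-GFP antibody on whole embryos of 1 transgenic Hmr-GFP line, 0 to 24 h old and of both sexes, in 3 biological replicates. All 3 replicates carried the C-terminal GFP fusion, so there was 1 group and no contrast between conditions. The promoter driving the fusion, and whether untagged Hmr remained, are not given in the labels used here. Since whole embryos of all these ages were used, the lists do not show in which cells a site was bound.

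Mediator is a large complex that carries signals from DNA-bound activators to RNA polymerase II. Its head and middle modules touch the polymerase, its tail receives most activators, MED14 is the scaffold that holds these together, and a separable kinase module regulates it. TFIID, made of the TATA-binding protein and the TAFs, recognises core promoters, and TFIIA, TFIIB, TFIIE, TFIIF and TFIIH complete the initiation complex around the polymerase. TFIIS, which the symbol rule also takes in, acts later and rescues polymerases that have stalled and backtracked. These genes are used in nearly every cell, apart from a few TAF paralogues of the male germ line such as Taf12L.

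The sequences under the 4 strongest peaks at these genes are shown first because all 4 summits lay in intergenic DNA and the values below refer to them. Each run is reference DNA of Release 6 from RefSeq (the dm6 build), read 5′ to 3′ on the strand of the named gene around the summit. Capitals mark TATAAA or CGATA on either strand, and neither lies in the run at MED30. The run at MED30 is chr3L:654198-654348 on the minus strand, that at MED27 is chr3R:5654893-5655043 on the plus strand, that at TfIIA-S is chr3R:23891061-23891205 on the minus strand, and that at MED17 is chr3R:18188860-18189010 on the plus strand.
MED30: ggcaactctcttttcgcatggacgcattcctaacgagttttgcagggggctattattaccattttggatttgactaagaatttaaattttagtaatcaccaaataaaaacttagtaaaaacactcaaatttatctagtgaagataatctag
MED27: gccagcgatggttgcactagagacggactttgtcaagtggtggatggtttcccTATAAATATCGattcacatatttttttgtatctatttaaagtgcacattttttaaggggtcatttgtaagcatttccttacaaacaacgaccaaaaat
TfIIA-S: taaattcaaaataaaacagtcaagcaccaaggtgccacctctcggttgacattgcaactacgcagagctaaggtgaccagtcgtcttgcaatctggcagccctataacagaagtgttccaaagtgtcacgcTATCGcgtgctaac
MED17: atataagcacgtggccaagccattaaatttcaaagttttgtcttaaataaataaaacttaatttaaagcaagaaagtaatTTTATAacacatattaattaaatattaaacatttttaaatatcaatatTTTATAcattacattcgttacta

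A summit was counted for a gene when it lay within 250 bp of any of its annotated starts. The optimal list, the authors' reproducible set of 8131 peaks, had a summit at 16 of the 49 genes (32.7%), against 23.4% of all protein-coding genes. The pooled list of 30000 candidate entries had one at 20 genes (40.8%), against 36.3%. In the lists called on single replicates, of 30000 entries each, the counts were 24 genes in replicate 1, 26 in replicate 2 and 28 in replicate 3. That is 53.1% ± 4.08 (SD, n = 3) of these genes, against 38.3% ± 4.08 of all genes, or 35.8%, 36% and 43% in replicates 1, 2 and 3. The 16 genes in all 3 replicate lists were exactly the 16 with an optimal summit (32.7%, against 24.5% of all genes). With a window of 100 bp the order turned, to 5 genes (10.2%) against 11.2% of all.

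The share was then read among strong entries alone. When each replicate list was restricted to its 8131 strongest entries, 15 of the 49 genes (30.6%) were found in all 3, against 15.2% of all genes, and 22 (44.9%) in at least 2, against 24.4%. The share depended on how a summit shared by neighbouring starts was credited. When each summit was given only to the protein-coding gene with the nearest start, 10 of the 49 genes (20.4%) had an optimal summit, against 19.7% of all genes, which is close to the background. In the pooled list the order turned under this rule, to 13 genes (26.5%) against 32.5% of all.

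**Figure D1:**
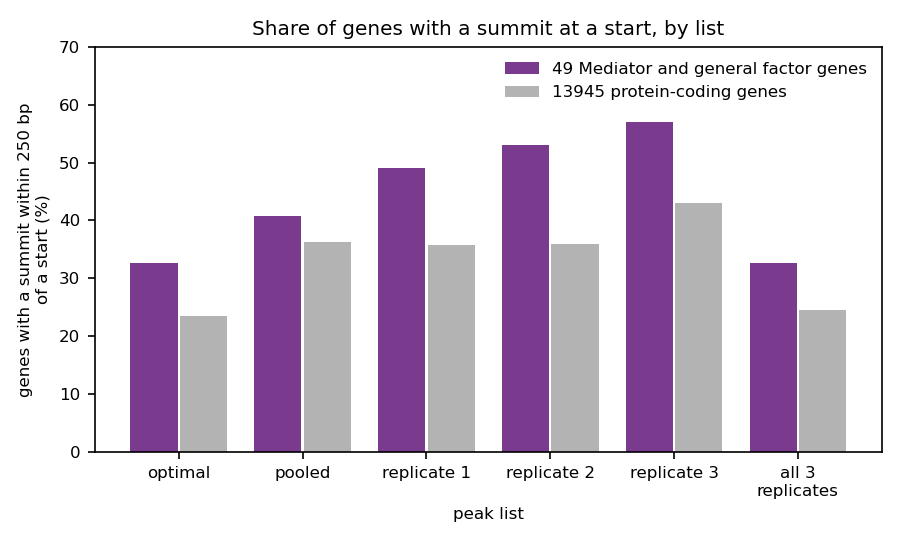
Bars give the percentage of genes with a summit within 250 bp of a start in the optimal list, the pooled list, each replicate list, and all 3 replicate lists together, for the 49 genes and for all 13945 protein-coding genes. The bar of the 49 genes is the taller in each pair, from 32.7% against 23.4% in the optimal list to 57.1% against 43% in replicate 3.

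The signal column, the authors' value for each peak, was read only within a list, and ranks count from 1 for the strongest entry. The strongest peaks at the 16 genes had a median signal of 540 (209 to 1211, n = 16), against 310 for the 2985 optimal peaks at any protein-coding start. Weaker second summits at MED6 (signal 233) and TfIIA-L (170) were left out, while the 2985 include every optimal peak in the window. The comparisons within the optimal list thus set 1 peak per gene against all peaks. With a window of 100 bp the medians were 332 and 295, and with peaks at nearest starts alone 381 and 310. The 16 peaks had a median rank of 1458.5 among the 8131 optimal peaks, against 3473. Of the 16 peaks, 12 (75%) were above the median of the optimal list, against 58.4% of the optimal peaks at protein-coding starts. The ranks in the replicate lists were ordered the same way, with medians of 1983, 1356 and 1686.5 in replicates 1, 2 and 3, against 3130, 2936.5 and 2835 for all genes with an optimal summit. Among the 16 genes 11 had their worst rank in replicate 1. The median for all genes with an optimal summit was also worst there, at 3130.

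**Figure D2:**
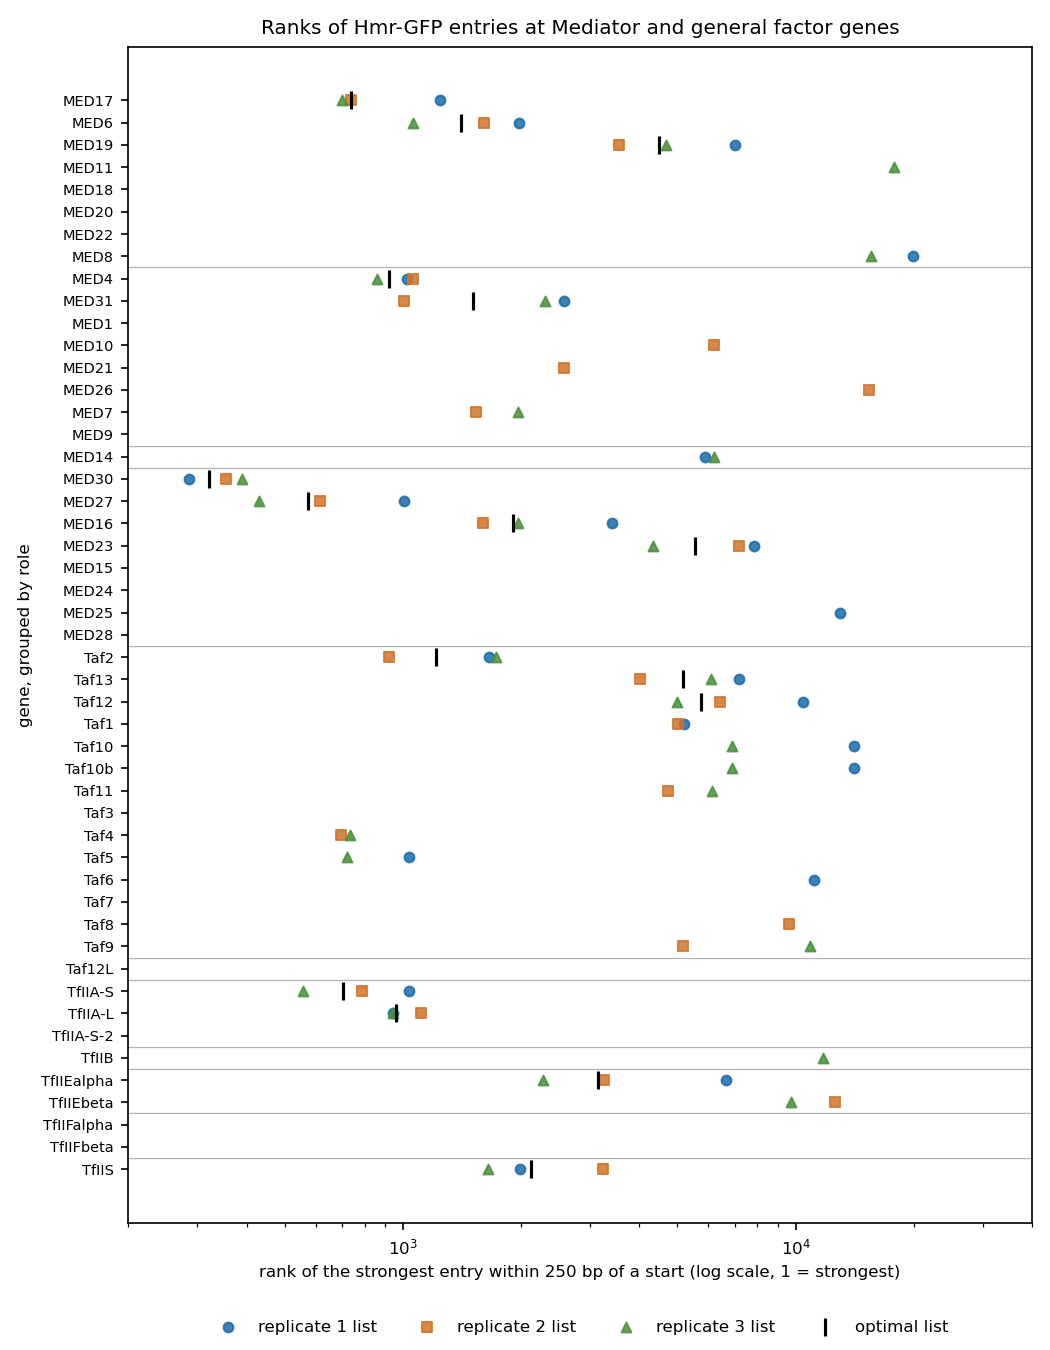
Each row is 1 of the 49 genes, grouped by role from Mediator head at the top to TFIIS at the bottom, and the logarithmic horizontal axis gives the rank of its strongest entry within 250 bp of a start in each replicate list (symbols) and in the optimal list (bars). MED30 is farthest to the left, with ranks of 286, 354 and 389, and 14 rows are empty.

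Mediator tail subunits were counted with those at the border of head and tail, and an optimal summit lay at 4 of these 8 genes (50%, against 23.4% of all genes). Sources differ on where MED19, MED27, MED28 and MED30 belong, so the counts for head, middle and tail depend on that choice. The 2 strongest sites of the 49 genes were at MED30 and MED27, and both summits were nearer to a neighbour's start. MED30, a subunit at that border, had the strongest peak of the 49 genes, with a signal of 1211 and rank 321 in the optimal list. Its replicate signals were 389, 406 and 389, with ranks of 286, 354 and 389, so the 3 replicates ranked it closely and each list placed it first among the 49 genes. The peak spanned 654056 to 654423 on 3L, and its summit lay 184 bp upstream of MED30 and 90 bp from the start of Rev1, which encodes a translesion DNA polymerase and faces MED30 across the same 274 bp. MED27, another border subunit, came second with a signal of 891 and rank 572. Its replicate signals were 210, 304 and 373 and its ranks 1005, 616 and 431, so replicate 1 ranked it lowest. The summit was 171 bp upstream of MED27 and 107 bp from the start of elm, in the peak from 5654835 to 5655173 on 3R.

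The other 2 summits of this group were weaker and belonged by distance to the Mediator gene itself. At MED16, a tail subunit, the peak on 2R from 22182988 to 22183161, with its summit 69 bp upstream, had a signal of 460, and replicate signals of 105, 179 and 173 at ranks 3404, 1601 and 1970. At MED23, a tail subunit that several activators contact, the peak from 22888779 to 22889234 on 2R had a signal of 215 and replicate signals of 58.8, 56.4 and 104, at ranks 7861, 7166 and 4338. The MED23 summit lay 79 bp inside the gene, in its 5′ UTR, and was the only one of the 16 strongest summits downstream of the start. MED15, MED24 and MED28 had no entry in any list within 250 bp. MED15, the tail subunit best known as an activator target, had a strong optimal peak just outside, 536 bp upstream, with a signal of 1265, rank 288, and ranks of 314 in replicate 1, 343 in replicate 2 and 242 in replicate 3. MED25 had a weak replicate 1 entry within the window (signal 38.9, rank 12978) and an optimal summit 370 bp upstream with a signal of 353 and rank 2880. That summit was nearer to Hs6st, which starts 435 bp upstream of MED25 on the opposite strand.

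In the head, with MED19 counted there, 3 of 8 genes had an optimal summit (37.5%, against 23.4% of all genes). MED17, a core head subunit, had a signal of 784 and rank 738 in the optimal list. Its replicate signals were 188, 280 and 297, at ranks of 1246, 738 and 699. The 4 summits, optimal and replicate, lay at −137, −141, −153 and −146 bp from the MED17 start, in a peak from 18188804 to 18189118 on 3R. MED6, which lies in the head near its contact with the middle, had a signal of 550 and replicate signals of 144, 179 and 242. Its summit, in the peak from 9767735 to 9767946 on 3R, was 25 bp upstream of an internal start of MED6 and 6 bp from the start of Naa80, an acetyltransferase gene, so the pair could not be told apart by distance. MED6 had a second, weaker summit 12 bp upstream of an internal start, with a signal of 233, that was nearest to MED6. The replicate 1 entry with the signal of 144 lay 135 bp from the stronger optimal summit. MED19, a subunit that contacts homeodomain proteins in flies, had a signal of 254 and replicate signals of 64.4, 104 and 98.6, its optimal summit lay 41 bp upstream, and the replicate 1 summit was 166 bp from it. MED18, MED20 and MED22 had no entry, MED8 had a pooled entry of rank 10257 and MED11 a replicate 3 entry of rank 17822.

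In the middle, with MED19 not counted there, 2 of 8 genes had an optimal summit (25%, near the 23.4% of all genes). MED4 had a signal of 707 and replicate signals of 208, 228 and 266, at ranks of 1025, 1063 and 861. The MED4 summits differed least of the 16 genes, by at most 6 bp between a replicate and the optimal list, at 141 bp upstream, and lay in a non-coding exon of the antisense RNA gene asRNA:CR43470 with no other protein-coding start nearer. MED31, a small and strongly conserved subunit, had a signal of 529 and replicate signals of 124, 235 and 157. Its summit was 177 bp upstream in an intron of CG9775, whose start was 52 bp away. MED1 and MED9 had no entry. Of the 8 middle genes 2 were listed in replicate 1, 6 in replicate 2 and 3 in replicate 3. The shares of all protein-coding genes were 35.8%, 36% and 43%. These counts are small, and no difference between lists was tested. MED10, MED21 and MED26 were in the replicate 2 list alone, with best ranks of 6192, 2579 and 15358. MED14, the scaffold, was listed in replicate 1 (signal 73.1, rank 5885) and replicate 3 (signal 79.4, rank 6201) and in neither the pooled nor the optimal list at its start.

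In TFIID an optimal summit lay at 3 of 14 TAF genes (21.4%), near the 23.4% of all genes. In replicates 1, 2 and 3 an entry lay at 8, 8 and 9 of the 14, against 35.8%, 36% and 43% of all genes. Taf2, the TAF that contacts the initiator element, had a signal of 600 and replicate signals of 160, 246 and 186, at ranks 1660, 924 and 1726. Its summit, in a peak from 9888672 to 9888904 on 3L, lay 112 bp upstream of Taf2 but 33 bp from the start of CalpB, a calpain protease gene, inside the CalpB 5′ UTR. Taf13, a histone-fold TAF that pairs with Taf11, had a signal of 228 and replicate signals of 62.9, 93.8 and 80.3, and nesd was nearer at 44 bp. Taf12, the histone-fold partner of Taf4, had a signal of 209, the lowest of the 16. Its replicate ranks were 10476, 6436 and 4985, so it was the single gene of the 16 outside the 8131 strongest entries of a replicate, and the summit was 3 bp from the start of Ho, a heme oxygenase gene. For all 3 TAF genes with an optimal summit the neighbour's start was therefore the nearer one.

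Several TAF genes were listed in replicates without an optimal summit. Taf10 and Taf10b, paralogues that start 45 bp apart on opposite strands, shared 1 weak entry with a pooled signal of 129 and rank 9863. That entry had ranks of 14052 in replicate 1 and 6890 in replicate 3 and was not listed in replicate 2. Taf9 had a pooled entry of rank 8913. Taf6 and Taf8 were each in 1 replicate list, with best ranks of 11174 in replicate 1 and 9611 in replicate 2. Taf3, Taf7 and the testis paralogue Taf12L had no entry in any list.

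The large and small subunits of TFIIA both had strong sites. TfIIA-S, the small subunit, had a signal of 808 and rank 706, with replicate signals of 207, 269 and 328 at ranks of 1035, 786 and 557. Its summit, in the peak from 23890980 to 23891258 on 3R, was 70 bp upstream, with no head-to-head neighbour and no other protein-coding start nearer. TfIIA-L, whose precursor protein is cut into the other subunits, had a signal of 691 and replicate signals of 216, 222 and 255, at ranks of 942, 1111 and 944. This summit lay 125 bp upstream of an internal TfIIA-L start, in an intron, and 123 bp from the start of pll, the Pelle kinase gene, so the distances barely differ. A second TfIIA-L summit, 76 bp downstream of a start, was weak (signal 170, rank 7244) and nearest to TfIIA-L. TfIIA-S-2, the third TFIIA gene, had no entry.

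Among the remaining factors, TfIIS had a signal of 430 and replicate signals of 144, 111 and 191, and its summit was 51 bp upstream with no nearer start. TfIIEalpha had a signal of 332 and replicate signals of 66.8, 111 and 159, at ranks of 6665, 3256 and 2269, so its replicates spread widely, and the optimal summit lay 68 bp upstream in the peak from 11681742 to 11682197 on 3L. Its partner subunit TfIIEbeta was listed in replicates 2 and 3 at ranks of 12611 and 9754, and not in the optimal list. TfIIFalpha and TfIIFbeta, which encode both subunits of TFIIF, had no entry in any list. TfIIB, the factor that bridges promoter and polymerase, had a single replicate 3 entry (signal 44.8, rank 11726), and a stronger replicate 3 entry 332 bp upstream (signal 191, rank 1649). The stronger entry was nearer to Bug22, which starts 420 bp upstream of TfIIB on the opposite strand.

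By family, an optimal summit lay at 9 of 25 MED genes (36%), 3 of 15 Taf genes (20%) and 4 of 9 TfII genes (44.4%), against 23.4% of all protein-coding genes. The median signals of these peaks were 550, 228 and 561. In replicates 1, 2 and 3 entries lay at 12, 13 and 13 MED genes, 8, 8 and 9 Taf genes, and 4, 5 and 6 TfII genes. The shares of all protein-coding genes in these lists were 35.8%, 36% and 43%. Among genes strong in 2 replicates, MED7, MED14, Taf1, Taf4, Taf5 and Taf11 had no pooled entry, which the optimal list requires. With so few genes in each family these counts and shares are descriptions, and no difference between families was tested. None of the 5 genes on X and neither of the 2 on chromosome 4 had an optimal summit, where 21.9% and 3.75% of all genes on those chromosomes did. On 3R it was 7 of 14 genes (50%, against 23.8% of all genes there) and on 3L 5 of 14 (35.7%, against 24.8%).

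At the other end, 14 of the 49 genes (28.6%) had no entry within 250 bp of a start in any of the 5 lists, against 47.7% of all protein-coding genes. They were MED1, MED9, MED15, MED18, MED20, MED22, MED24, MED28, Taf3, Taf7, Taf12L, TfIIA-S-2, TfIIFalpha and TfIIFbeta. Every 32-base stretch within 250 bp of their starts occurred once in the genome. Of all 49 genes 48 had over 90% of such stretches unique, and MED26, on chromosome 4, had 77.6%.

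Summits lay just upstream of the starts. Of the 16 strongest summits 15 (93.8%) were upstream, against 83.3% of all genes with an optimal summit, and the median position was −91 bp, against −86 bp. Up to 100 bp upstream lay 7 of them, a further 7 lay up to 200 bp upstream, and that of Taf13 lay 202 bp upstream. In each replicate list the nearest summit of any rank was compared with the optimal one, which was itself called on the pooled replicates. For each gene the largest such distance was 6 to 166 bp, with a median of 31.5 bp, and it was within 50 bp at 10 of 16 genes. Taking the nearest summit favours short distances, and the distance was not computed for all genes.

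**Figure D3:**
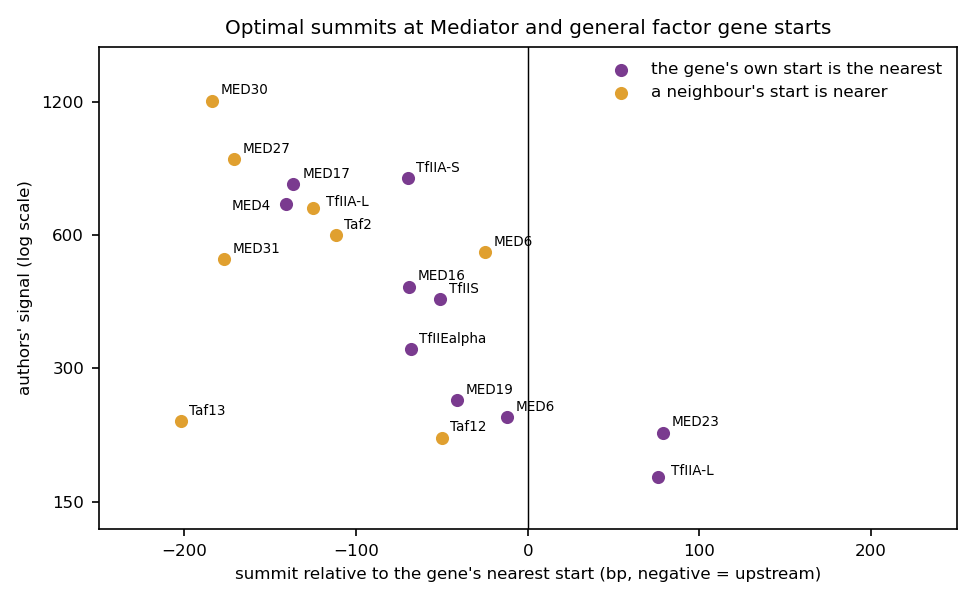
The 18 optimal summits within 250 bp of a start of the 16 genes are plotted by position relative to that start (bp, negative upstream) and by the authors' signal on a logarithmic axis, with colour for whether the gene's own start or a neighbour's was nearest. The summits cluster between 202 and 12 bp upstream, and those of MED23 and the weaker of 2 at TfIIA-L are downstream.

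These genes are arranged head to head more often than protein-coding genes overall. A protein-coding gene started on the opposite strand within 500 bp upstream of 30 of the 49 genes (61.2%), against 27.4% of all. Among genes with such a partner, 12 of 30 (40%) had an optimal summit, against 39.2% of all genes with a partner. Among genes without one, 4 of 19 (21.1%) did, against 17.4% of all genes without a partner. Within each promoter layout the share in the optimal list was close to the background. When a summit counted only for the nearest start, the shares were 20% with a partner, against 26.1% of all such genes, and 21.1% without, against 17.3%. The part of layout in that difference was not tested. At 6 genes, MED27, MED30, MED31, Taf2, Taf12 and Taf13, each summit was nearer to a neighbour. Counting any summit, 10 of 16 genes (62.5%) had one nearest to their own start, against 84.5% of all genes with a summit. By the strongest summit alone it was 8 of 16, since those of MED6 and TfIIA-L were nearer to Naa80 and pll.

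**Figure D4:**
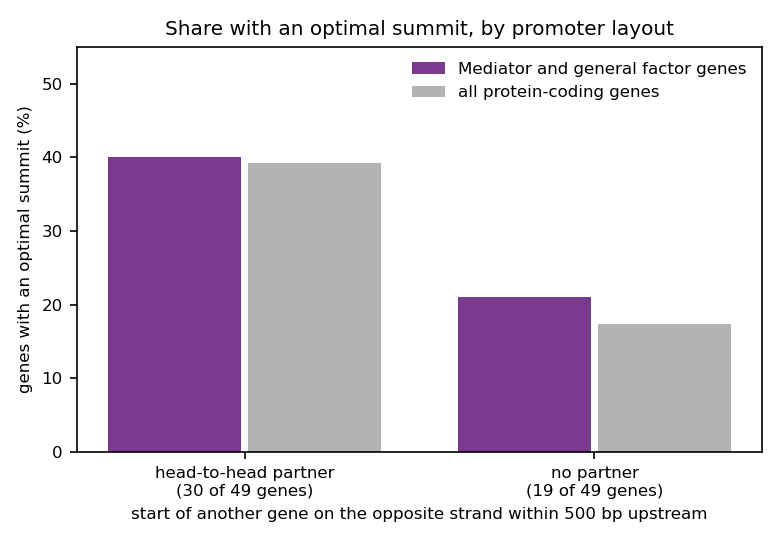
Bars give the percentage of genes with an optimal summit for genes with and without a head-to-head partner within 500 bp upstream, for the 49 genes and for all protein-coding genes. Both pairs are close, 40% against 39.2% with a partner and 21.1% against 17.4% without.

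The promoters, read from 250 bp before to 50 bp after the 5′ end of each gene, were searched on both strands for 4 short sequences known from fly promoters. These were TATCGATA (the DNA replication-related element, DRE, which the factor DREF binds), GGTCACAC (the core of motif 1, which M1BP binds), TATAAA (the TATA box) and CGATA (the core recognised by BEAF-32, also contained in every DRE). Genes were sorted by a summit at any start, so a searched promoter need not hold the summit. At MED6 and TfIIA-L the summits lay at internal starts. By the 5′ end alone 14 of the 49 genes had an optimal summit, against 20.6% of all genes. The DRE was found in promoters of 1 of the 16 genes with an optimal summit (6.25%) and 7 of the 33 without (21.2%), against 9.36% of all promoters. Motif 1 was found in 2 of the 16 (12.5%) and 10 of the 33 (30.3%), against 7.70% of all. Over all protein-coding genes, sorted in the same manner, the order was the other way. The DRE was in promoters of 13.6% of genes with and 8.06% of genes without a summit, and motif 1 in 13.1% and 6.06%. The 10 genes with motif 1 and no optimal summit were not all without entries. Taf4 had ranks of 695 and 733 in replicates 2 and 3, and Taf5 of 1038 and 721 in replicates 1 and 3. Taf1 had ranks of 5190 and 5010 in replicates 1 and 2. Entries at MED8, MED10 and MED11 ranked below these. MED15, MED20, MED22 and MED24 had no entry within 250 bp, but MED15 had an optimal summit 536 bp upstream. TATAAA was in 5 of the 16 (31.2%) and 18 of the 33 (54.5%), against 45.8% of all, and CGATA in 6 of the 16 (37.5%) and 21 of the 33 (63.6%), against 47.4%. Over all protein-coding genes TATAAA was in promoters of 43.2% of genes with and 46.6% of genes without a summit, the order seen in the 49 genes. CGATA was in 54.3% and 45.2%, the other order. A match shows the letters and does not show that a factor was bound, and these counts were not tested.

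The sites below show the DRE in the 1 promoter that had a summit, MED17, and in MED18 and Taf3. The latter come from the 7 promoters with a DRE and no optimal summit. Capitals mark the DRE. In MED17 it lay 20 to 27 bp upstream of the start, outside the run printed above, and the optimal summit was 137 bp upstream. In MED18 it lay 58 to 65 bp upstream and in Taf3, on the minus strand of chromosome 4, 28 to 35 bp upstream. Neither gene had an entry in any list, and on chromosome 4 only 3.75% of all genes had an optimal summit. Of the others among the 7, MED9 and MED28 also had no entry. MED8 had a pooled entry of rank 10257, and MED7 had ranks of 1533 and 1968 in replicates 2 and 3. MED25 had an optimal summit 370 bp upstream, nearer to the start of Hs6st.
MED17: agcactcattTATCGATAgccggccgca
MED18: cgttcatcgtTATCGATAgactatttga
Taf3: ataccccaaaTATCGATAtatttcccat

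Around the summits themselves, within 100 bp, the DRE was found at 0 of 16 peaks, against 8.31% of the 2985 optimal peaks at protein-coding starts. Motif 1 was found at 2 (12.5%), those of MED19 and MED23, against 8.31%. TATAAA was found at 5 (31.2%), against 29.2%, and CGATA at 4 (25%), against 41.8%.

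In the rest of the initiation machinery, under other symbols, an optimal summit lay at 11 of 33 genes (33.3%, against 23.4% of all genes), all of them TFIIH or RNA polymerase II genes. Of 10 TFIIH genes 6 (60%) had one. At Ssl1, a TFIIH core subunit, the peak had a signal of 3514 and rank 11, with ranks of 16, 12 and 13 in the replicates. That summit was 81 bp from Chro, the chromodomain protein gene Chromator, and 186 bp from Ssl1. Mat1 (signal 441), Tfb5 (423), Tfb1 (355), Cdk7 (208) and hay (163) followed in signal. The Tfb5 and Cdk7 summits were nearer to SelT and snf.

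Of 12 RNA polymerase II subunit genes 5 (41.7%, against 23.4% of all genes) had an optimal summit. Their signals were 995 at Polr2B, the second largest subunit, 628 at Polr2F, 554 at Polr2H, 465 at Polr2E and 224 at Polr2I. The Polr2H summit was 7 bp from the start of its neighbour CG11247. None of the 4 kinase-module genes had one, although skd had a pooled entry of rank 8398. None of the 3 TBP-family genes had one either. Tbp, the TATA-binding protein gene, was in all 3 replicate lists at ranks of 11560, 12197 and 9196, and in the pooled list at rank 9607. The testis homologues of TAF genes, can, nht, mia and sa, were 4 genes that had no entry in any list.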

How the data were processed

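The series held 1 group, 3 biological replicates of Hmr-GFP ChIP-seq. The authors deposited narrowPeak lists in dm6 and dm3. Per the deposited text files, relaxed lists had been called for each replicate and for the pooled replicates against a control, and the optimal list kept by the irreproducible discovery rate. Neither the caller, the aligner nor the IDR threshold is given in the sources used here. The signal of each peak is the authors' value in the deposited column 7, used only within 1 list. Its scale moves with depth, and depth is unknown. Summits were taken from column 10 of the deposited lists. The 8131 optimal peaks were exactly the 8131 strongest pooled entries. The dm3 lists were not used here.

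Starts were those of every transcript of protein-coding genes in Ensembl release 115. Of 30593 annotated start codons 30540 read ATG in the Release 6 genome, and all peaks lay inside its chromosomes. An optimal summit was matched in a replicate within 200 bp among that replicate's 8131 strongest entries. Counting was done with python 3.11.15 and pandas 2.3.3 and was tested on simulated data. No statistical test was made, since there was 1 group and the genes are not replicates. Replicate means are given with SD, which covers the spread between 3 lists. The genes, roles and lists of related genes were chosen with earlier results of these data known. Every gene with an optimal summit was named, as were genes with no entry. Further genes without an optimal summit were named after their values were seen. Alternatives covered the window, how summits were credited, the starts and the entries used.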

Additional observations from a re-analysis of the deposited data

How the results depend on the processing

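The 16 genes with an optimal summit became 9 with a window of 100 bp (18.4%, against 13.4% of all genes). They became 10 when a summit counted only for the nearest start (20.4%, against 19.7%). Other settings were windows of 500 and 1000 bp, the gene's 5′ end alone, and the peak interval over the start. Peaks above the median signal, or peaks matched in all 3 replicates, were also used alone. Across these settings the count was 12 to 18 (24.5% to 36.7%, against 15.2% to 31.8% of all genes). Leaving out 1 replicate at a time gave 15 to 16 (30.6% to 32.7%, against 16.0% to 18.5% of all genes). Without the pooled list, an alternative chosen after seeing the data, the count was 22 (44.9%, against 24.4% of all genes). The 20 genes with a pooled entry became 12 with a window of 100 bp, 24.5% against 23.4% of all genes. With the nearest start alone they became 13, 26.5% against 32.5% of all genes, which turns the direction. The 16 genes in all 3 replicate lists became 5 with a window of 100 bp, 10.2% against 11.2% of all genes, which turns the direction. When 1 replicate was left out they became 17 to 21 (34.7% to 42.9%, against 25.6% to 31.1% of all genes). The median signal of 540 became 332 with a window of 100 bp, against 295 at all protein-coding starts, and 381 with the nearest start alone, against 310. A narrower window and the nearest-start rule leave fewer summits by construction, and any other cause was not tested. No paired analysis was possible because there was 1 group of samples. Sequencing depth was unknown, so a gene with no entry was not detected in these lists and is not shown to be unbound.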

Other observations

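Some of these genes had strong replicate entries with no pooled entry within 250 bp of a start. Taf4, a TFIID core subunit, had signals of 288 in replicate 2 (rank 695) and 290 in replicate 3 (rank 733), 144 and 128 bp upstream, and no entry there in replicate 1. Taf5, another TFIID core subunit, had signals of 207 in replicate 1 (rank 1038) and 292 in replicate 3 (rank 721), and none in replicate 2. MED7 had signals of 185 and 173 in replicates 2 and 3, at ranks of 1533 and 1968. MED14, Taf1 and Taf11 had weaker entries in 2 replicates, at ranks of 4731 to 6201. These 6 genes were 27.3% of the 22 found among the 8131 strongest entries of at least 2 replicates, against 9.84% of the 3403 such genes overall.

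Polr2J, an RNA polymerase II subunit gene, showed the same pattern, with ranks of 726 in replicate 2 and 919 in replicate 3 and no pooled entry. Over the whole lists, counted by entry and within 500 bp, 193 (2.37%), 467 (5.74%) and 559 (6.87%) of the 8131 strongest entries of replicates 1, 2 and 3 had no pooled entry. Of the 1000 strongest the counts were 2, 22 and 26. The optimal list consists of pooled entries, so such genes could not appear in it. The cause was not tested.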
